A study of Homo sapiens with 6 samples.

Results

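The 9 genes described here encode cell surface molecules, or the enzymes of a surface glycolipid, at which therapies for small cell lung cancer (SCLC) have been aimed. They were chosen by name: DLL3, SEZ6, NCAM1, SSTR2, CEACAM5, EPCAM and CD24 as surface antigens, and ST8SIA1 and B4GALNT1 as the enzymes that lead to the ganglioside GD2. They are 9 of the 62696 genes counted in 6 RNA-Seq libraries of DMS53, an established human cell line of neuroendocrine (NE) SCLC. The 3 control libraries came from cells that carried an empty lentiviral plasmid, and the 3 OC2-OE libraries from cells with enforced expression of ONECUT2 (OC2), a transcription factor of the ONECUT family. Cells of both groups were grown in the same medium, transduced with lentiviral particles and selected with puromycin, so the control shares the transduction and the drug. The methods describe a vector that adds a green fluorescent protein and a puromycin resistance gene. The comparison asks how the level of each gene differed between OC2-OE and control cells, within a study that asks whether OC2 affects the plasticity of SCLC cells. A single cell line was used, and the libraries measure mRNA in selected cell populations, not protein at the surface.

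NE cells of SCLC carry antigens that most adult tissues hold at low levels, and this is the basis for directing antibodies, antibody-drug conjugates, T cell engagers or radioligands to them. DLL3 is an atypical Notch ligand that inhibits the pathway from within the cell that makes it, and it is the target of a bispecific T cell engager used in SCLC. SEZ6 is a transmembrane protein of neurons, NCAM1 (CD56) is a neural adhesion molecule used to diagnose NE tumours, and SSTR2 is a G protein-coupled receptor for somatostatin that binds radiolabelled peptides. CEACAM5 (carcinoembryonic antigen) and EPCAM are adhesion molecules of epithelial cells, while CD24 is a small, heavily glycosylated protein on a glycosylphosphatidylinositol (GPI) anchor that binds Siglec-10 on macrophages. GD2 is built in the Golgi apparatus by adding sugars to lactosylceramide in order. ST3GAL5 makes GM3, ST8SIA1 (GD3 synthase) adds the second sialic acid, and B4GALNT1 (GM2/GD2 synthase) adds the N-acetylgalactosamine that turns GD3 into GD2.

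The libraries held 16533284 to 19099337 counts. ONECUT2, the gene that was enforced, had 465, 412 and 394 counts in control and 74031, 68853 and 72763 in OC2-OE, which fits the labels, and its OC2-OE counts may include transcripts of the vector. All 10 NE markers and all 7 epithelial markers that were listed passed the filter on low counts, with summed levels of 5855 to 5892 TPM (a level scaled to gene length and library total) in control and 7662 to 7743 in OC2-OE for the NE list, and 3966 to 4107 and 2636 to 2678 TPM for the epithelial list. The sum hides that NE markers went both ways. Of all tested genes 56.5% were called in this comparison, 27.8% higher and 28.7% lower. Of the 10 NE markers, 4 were higher and 5 lower in OC2-OE (90% called), with a median log2 fold change of -0.11: SCG2 (from 1268 to 3699 TPM) and UCHL1 (from 1990 to 2717) rose, and INSM1 (from 472 to 128), DDC (from 665 to 119) and GRP (from 627 to 30.4) fell. Of the 7 epithelial markers, 1 was higher and 5 lower (85.7% called), with a median of -0.72. Markers of other cell types were low. For the immune list 1 of 8 genes (CD14) passed the filter and the sum was 8.12 to 10.1 TPM in control and 13.95 to 16.2 in OC2-OE, with CD3E and TYROBP at 0 in all libraries. For fibroblasts 4 of 7 passed, with 10.3 to 11.5 and 13.3 to 15.1 TPM, and for endothelium 3 of 5 passed, with 8.03 to 9.42 and 2.43 to 2.699 TPM. In these bulk libraries, fewer cells that make a transcript and less of it per cell cannot be told apart.

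All 9 genes passed the filter on low counts and were tested. CEACAM5, EPCAM and B4GALNT1 were higher in OC2-OE, DLL3, NCAM1, SSTR2 and CD24 were lower, and SEZ6 and ST8SIA1 were not called. A gene was called at an adjusted p under 0.001 in edgeR's quasi-likelihood test, with the p-values of all 17307 genes tested adjusted by Benjamini-Hochberg. Calls were common in this comparison, with 56.5% of all tested genes called, 27.8% higher and 28.7% lower, and in 73.2% the groups did not overlap in CPM, the count scaled to the library total and the TMM factor of the library. Against that background, 7 of the 9 genes were called and the groups did not overlap in 7 of 9. The median absolute log2 fold change over all tested genes was 0.38 and its upper quartile 0.80. CEACAM5, NCAM1 and SSTR2 lay beyond that quartile, and the other 6 within it. The median log2 fold change of the 9 genes was -0.31, beside 0.01 over all tested genes.

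**Figure D1:**
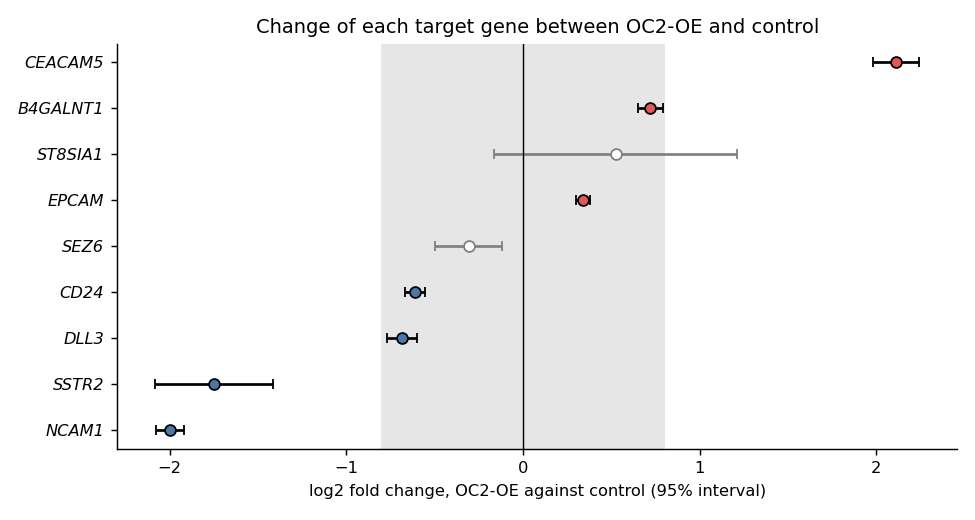
Log2 fold change of each gene in OC2-OE against control (x axis), with its 95% interval, from edgeR over 3 libraries a group, red for higher, blue for lower and open grey for not called. The shaded band spans the log2 fold changes up to 0.80 in size, the upper quartile over all tested genes, and only CEACAM5 (2.11), NCAM1 (-1.996) and SSTR2 (-1.75) lie outside it.

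Among the antigens of NE cells, NCAM1, SSTR2 and DLL3 fell and SEZ6 did not pass the threshold. The 95% intervals of the log2 fold change of NCAM1 (-2.08 to -1.92) and SSTR2 (-2.08 to -1.42) lay below that of DLL3 (-0.77 to -0.60). DLL3 (ENSG00000090932.11, chr19:39498895-39508481 of GRCh38, plus strand) had 79.8, 81.1 and 85.0 CPM in the control libraries and 50.4, 48.4 and 53.8 in OC2-OE. The groups did not overlap, and the lowest control library lay well above the highest OC2-OE library. Its log2 fold change was -0.69 (standard error 0.044; adjusted p = 2.1e-29, edgeR), a level 1.61-fold lower in OC2-OE, and 70.4% of all tested genes had a smaller absolute change.

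NCAM1 (ENSG00000149294.17, chr11:112961247-113278436, plus strand) had 173, 160 and 159 CPM in control and 40.2, 40.0 and 43.3 CPM in OC2-OE. The 3 libraries of each group lay close together, with means of 164 ± 7.83 and 41.2 ± 1.85 CPM (SD, n = 3). This was a 3.99-fold difference, with a log2 fold change at -1.996 (standard error 0.040; adjusted p = 8.75e-77, edgeR), larger in size than that of 94.8% of all tested genes. Genes on the opposite strand within its bounds held few counts: NCAM1-AS1 had 43 in the 3 control libraries together and 14 in OC2-OE, and counting used the strand.

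SSTR2 (ENSG00000180616.9, chr17:73165010-73176633, plus strand) was measured at a much lower depth, with 123, 110 and 120 counts in control and 46, 41 and 24 in OC2-OE. These are 6.58, 6.57 and 7.38 CPM against 2.40, 2.37 and 1.32 CPM. The groups did not overlap, and OC2-OE replicate 3 was the lowest of the 6 libraries. On the log2 scale the change was -1.75 (standard error 0.17; adjusted p = 1.41e-17, edgeR), and between -1.89 and -1.51 when each library was left out in turn. SSTR2 had the widest interval of the 7 called genes, from -2.08 to -1.42.

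SEZ6 (ENSG00000063015.21, chr17:28954901-29006440, minus strand) had 13.9, 19.4 and 15.2 CPM in control and 11.7, 14.8 and 12.7 CPM in OC2-OE. The groups overlapped, since OC2-OE replicate 2 lay above control replicate 1. Its log2 fold change was -0.31 (95% interval -0.50 to -0.12; adjusted p = 0.00303, edgeR), which missed the threshold of 0.001. Control replicate 2 was the highest of its group and OC2-OE replicate 2 the highest of the other. Without control replicate 1 the value was -0.41 (adjusted p = 6.35e-05, edgeR) and without OC2-OE replicate 2 it was -0.40 (adjusted p = 0.000363, edgeR), both past the threshold, while over the alternatives tried the adjusted p ranged from 6.35e-05 to 0.149.

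**Figure D2:**
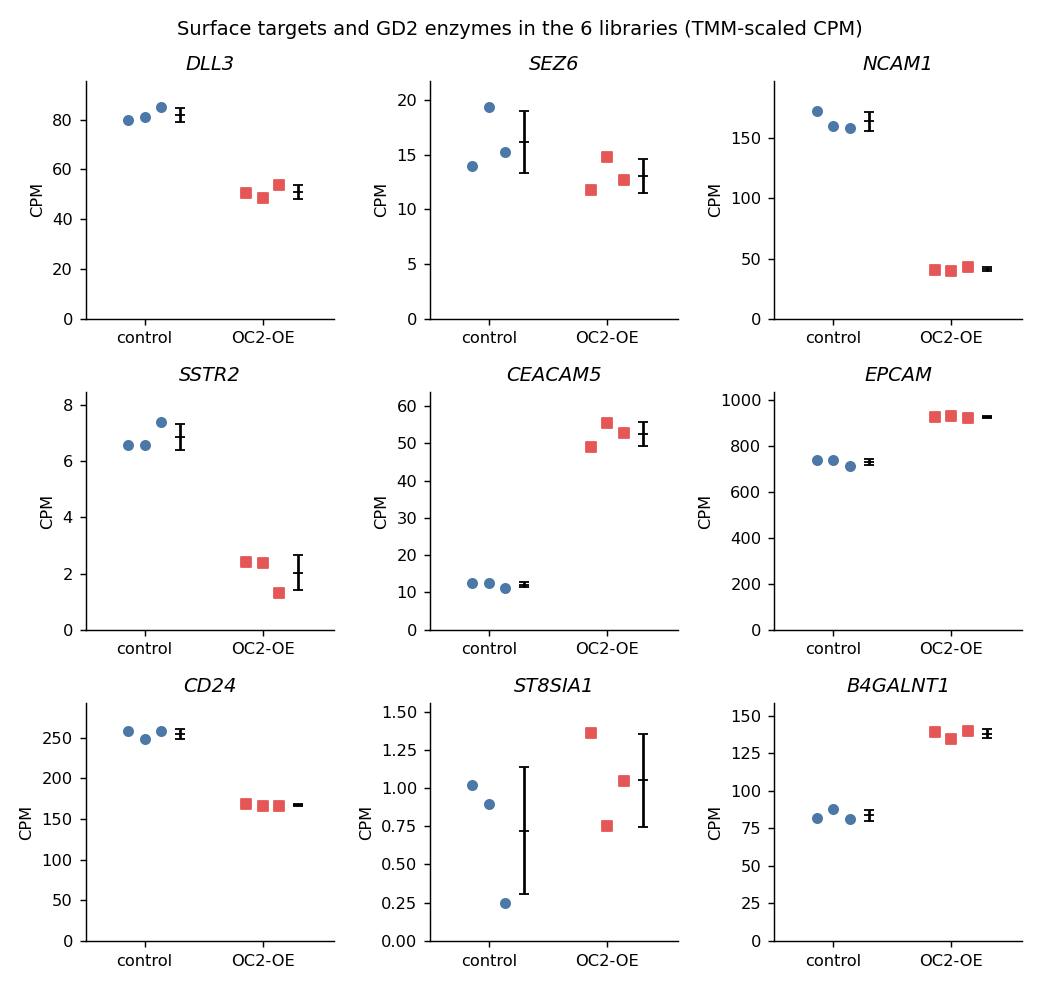
TMM-scaled CPM (y axes, each from 0) of the 9 genes in the 3 control libraries (blue circles) and the 3 OC2-OE libraries (red squares), with the mean and SD of each group in black. The groups are apart in 7 panels and overlap for SEZ6 and ST8SIA1.

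Of the antigens of epithelial cells, CEACAM5 rose more than 4-fold from a low level and EPCAM 1.27-fold from a very high level. CEACAM5 (ENSG00000105388.17, chr19:41708585-41730433, plus strand) had 12.6, 12.4 and 11.2 CPM in control and 49.0, 55.6 and 52.7 CPM in OC2-OE. Every OC2-OE library lay far above every control library. Its log2 fold change was 2.11 (standard error 0.066; adjusted p = 1.39e-57, edgeR), a level 4.32-fold higher, and only a small share of tested genes moved farther, since 95.4% had a smaller absolute change. Reads that CEACAM5 shares with near-identical relatives, above all CEACAM6, were not counted where they mapped to several places, so the split between the genes is uncertain. With the counts of CEACAM5 and CEACAM6 added together, an alternative chosen after seeing the data, the levels were 94.7, 90.2 and 87.8 CPM in control and 625, 624 and 638 CPM in OC2-OE, and the log2 fold change was 2.79.

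EPCAM (ENSG00000119888.11, chr2:47345158-47387601, plus strand) had 738, 738 and 713 CPM in control and 925, 929 and 921 CPM in OC2-OE. The 3 OC2-OE libraries lay within a few CPM of each other and above all control libraries. The log2 fold change was 0.34 (standard error 0.020; adjusted p = 3.53e-32, edgeR), a level 1.27-fold higher. The libraries held 11599 to 17733 counts of EPCAM, and 46.1% of all tested genes had a smaller absolute change.

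CD24 (ENSG00000272398.6, chr6:106969831-106975627, minus strand) had 258, 248 and 258 CPM in control and 168, 166 and 166 CPM in OC2-OE. The groups did not overlap and the OC2-OE libraries were nearly equal. On the log2 scale the change was -0.61 (standard error 0.028; adjusted p = 4.3e-42, edgeR), a level 1.53-fold lower. CD24 has near-identical processed copies elsewhere in the genome, and those on chromosomes 1, 3 and 15 had 0 counts in all 6 libraries. Any copy on chromosome Y was left out of this check. Reads that map equally to the gene and a copy were not counted, so a count of 0 does not show that a copy is silent. The absolute level of CD24 is uncertain for the same reason.

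The sequence before the gene start is shown for SSTR2, CEACAM5 and CD24, which were called and have an entry among the RefSeq promoters of GRCh38.p14 that reaches before the start of the gene in the files' annotation. Each is written 5′ to 3′ on the strand of the gene, in lower case, with CG pairs in capitals, to set the CG-poor sequence before CEACAM5, the gene of the 9 with the highest log2 fold change, beside those before SSTR2 and CD24, which fell. For SSTR2 it is chr17:73164760-73165009 (plus strand), for CEACAM5 chr19:41708376-41708584 (plus strand) and for CD24 chr6:106975628-106975877 (minus strand).
SSTR2: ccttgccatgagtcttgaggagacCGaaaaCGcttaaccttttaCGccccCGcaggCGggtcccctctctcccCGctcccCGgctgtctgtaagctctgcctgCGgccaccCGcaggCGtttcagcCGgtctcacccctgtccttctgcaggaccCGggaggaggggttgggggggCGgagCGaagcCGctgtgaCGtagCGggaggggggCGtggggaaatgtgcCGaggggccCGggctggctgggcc
CEACAM5: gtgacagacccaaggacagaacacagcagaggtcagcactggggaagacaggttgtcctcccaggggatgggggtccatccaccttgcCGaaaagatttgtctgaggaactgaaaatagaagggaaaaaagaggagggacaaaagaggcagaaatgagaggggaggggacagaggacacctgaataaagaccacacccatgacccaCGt
CD24: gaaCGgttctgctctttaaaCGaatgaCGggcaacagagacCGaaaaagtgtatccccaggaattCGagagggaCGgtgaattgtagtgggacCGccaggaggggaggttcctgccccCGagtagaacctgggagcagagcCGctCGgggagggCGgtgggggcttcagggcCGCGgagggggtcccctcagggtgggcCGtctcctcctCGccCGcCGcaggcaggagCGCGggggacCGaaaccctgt

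The stretch printed for CEACAM5 holds 2 CG pairs in 209 bases, and those for SSTR2 and CD24 hold 20 each in 250 bases. The window of ST8SIA1, which was not called and is not printed, holds 28 CG pairs. A link between CG pairs and the direction of change was not tested. EPCAM and B4GALNT1, the other genes called higher, and DLL3 and NCAM1, which fell, had no promoter entry. Over the promoter windows of 250 bases before each of 35116 starts, the median was 11 CG pairs and 58% G and C, and 22.9% of windows had as few CG pairs as that of CEACAM5. ONECUT proteins are known to bind sites with the letters ATTGAT, and also a variant with the letters ATCGAT, which reads the same on both strands. Both were searched on both strands. The windows of the 4 genes with an entry (SSTR2, CEACAM5, CD24 with 3 starts, and ST8SIA1) held neither, while 5.58% of all windows held the first, 0.655% the second and 6.19% either. That says only that these letters are not in these windows.

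The enzymes of GD2 synthesis were measured at very different depths. B4GALNT1 (ENSG00000135454.14, chr12:57623409-57633239, minus strand) had 82.2, 87.8 and 81.2 CPM in control and 139, 135 and 140 CPM in OC2-OE. All OC2-OE libraries lay above all control libraries. Its log2 fold change was 0.72 (standard error 0.036; adjusted p = 7.87e-39, edgeR), a level 1.65-fold higher, and 71.9% of tested genes had a smaller absolute change. ST8SIA1 (ENSG00000111728.11, chr12:22063773-22437041, minus strand), the enzyme before it in the pathway, was close to the limit of detection, with 19, 15 and 4 counts in control and 26, 13 and 19 in OC2-OE. The groups overlapped and control replicate 3 was the lowest library. On the log2 scale the change was 0.52, with a 95% interval of -0.16 to 1.21 (adjusted p = 0.169, edgeR), so a slight fall and a rise of more than 2-fold both lie within the interval. CMAS on the opposite strand overlaps the end of ST8SIA1 and had 10129 counts in control and 10842 in OC2-OE over 3 libraries each. Its part in the counts of ST8SIA1 was not tested.

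The other genes of ganglioside metabolism were taken from 3 lists of the synthesis, the supply of sialic acid and the breakdown. Of 16 synthesis genes 15 were tested, of which 4 were higher, 7 lower and 4 not called (73.3% called, beside 56.5% of all tested genes, with 27.8% higher and 28.7% lower), and the median log2 fold change was -0.12. UGCG, which makes the glucosylceramide from which gangliosides start, fell from 74.3 ± 0.731 to 34.4 ± 1.07 CPM (SD, n = 3; log2 fold change -1.11, standard error 0.048). ST3GAL5, the GM3 synthase that feeds ST8SIA1, was at 7.20 ± 0.443 and 8.29 ± 0.369 CPM (SD, n = 3) and was not called (log2 fold change 0.20; adjusted p = 0.108, edgeR). By absolute log2 fold change the first 3 called synthesis genes were ST6GALNAC5 (1.77, from 68 to 246 summed counts), FUT2 (1.21, from 148 to 363) and ST8SIA3 (1.15, from 55 to 130), all higher. The places of FUT2 and ST8SIA3 are uncertain. Their 95% intervals (0.91 to 1.52 and 0.65 to 1.65) include the sizes of the changes of ST6GALNAC6 (-1.14) and UGCG (-1.11), both called lower. The shared direction of these 3 says nothing about the list, which had 4 higher and 7 lower. ST6GALNAC5 adds a sialic acid to gangliosides of the brain, FUT2 is a fucosyltransferase, and ST8SIA3 is a sialyltransferase of the ST8SIA1 family.

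Every tested breakdown gene rose. These 10 of 11 listed genes encode lysosomal enzymes, a plasma membrane sialidase and activator proteins, and their log2 fold changes ran from 0.26 (NEU3) to 1.32 (PSAP), with a median of 0.64, where 27.8% of all tested genes were called higher, and 3 of the 10 were called with a change of 1 or more on the log2 scale, beside 17.3% of all tested genes in either direction. PSAP, the precursor of the saposins that present glycolipids to lysosomal enzymes, rose from 1120 ± 11.8 to 2803 ± 16.5 CPM (SD, n = 3). The GM2 activator GM2A rose from 40.7 ± 2.27 to 88.5 ± 0.837 CPM (log2 fold change 1.12, standard error 0.045). Of the 6 sialic acid supply genes, 2 were higher (SLC35A1 at 0.48, GNE at 0.24), 2 lower (NANP at -0.46, NANS at -0.24) and 2 not called (66.7% called, near the 56.5% over all tested genes), with a median of 0.13. The count of higher genes was 1 without control replicate 2, and that of lower genes was 1 without OC2-OE replicate 1.

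**Figure D3:**
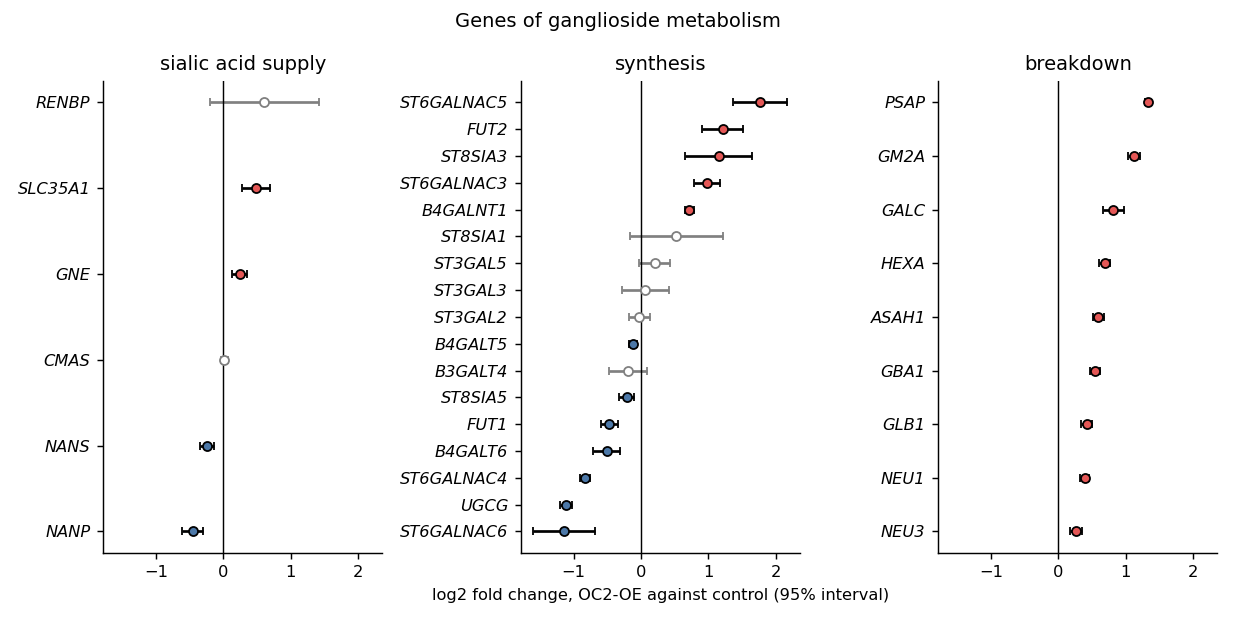
Log2 fold change in OC2-OE against control with 95% intervals for tested genes of sialic acid supply, ganglioside synthesis (with ST8SIA1 and B4GALNT1) and ganglioside breakdown, red for higher, blue for lower and open grey for not called. The breakdown genes drawn lie to the right of 0, from 0.26 to 1.32, while the synthesis genes spread from -1.14 to 1.77.

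Levels of different genes were compared per length, as TPM. In control the order was EPCAM at 1225 ± 19.2 TPM, CD24 at 336 ± 9.45, DLL3 at 128 ± 4.72, NCAM1 at 52.6 ± 2.49, B4GALNT1 at 43.3 ± 1.66, SEZ6 at 13.3 ± 2.29, CEACAM5 at 12.4 ± 0.696, SSTR2 at 3.56 ± 0.256 and ST8SIA1 at 0.202 ± 0.116 TPM (SD, n = 3). SEZ6 and CEACAM5 overlapped, and no other neighbours did. In OC2-OE the order was EPCAM at 1597 ± 7.75 TPM, CD24 at 226 ± 1.38, DLL3 at 81.5 ± 4.37, B4GALNT1 at 73.3 ± 1.49, CEACAM5 at 55.2 ± 3.45, NCAM1 at 13.6 ± 0.604, SEZ6 at 11.1 ± 1.32, SSTR2 at 1.08 ± 0.329 and ST8SIA1 at 0.304 ± 0.0878 TPM (SD, n = 3), with no neighbours overlapping. The first 3 and the last 2 places were thus held by the same genes, and NCAM1 passed from above B4GALNT1, SEZ6 and CEACAM5 to below B4GALNT1 and CEACAM5.

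**Figure D4:**
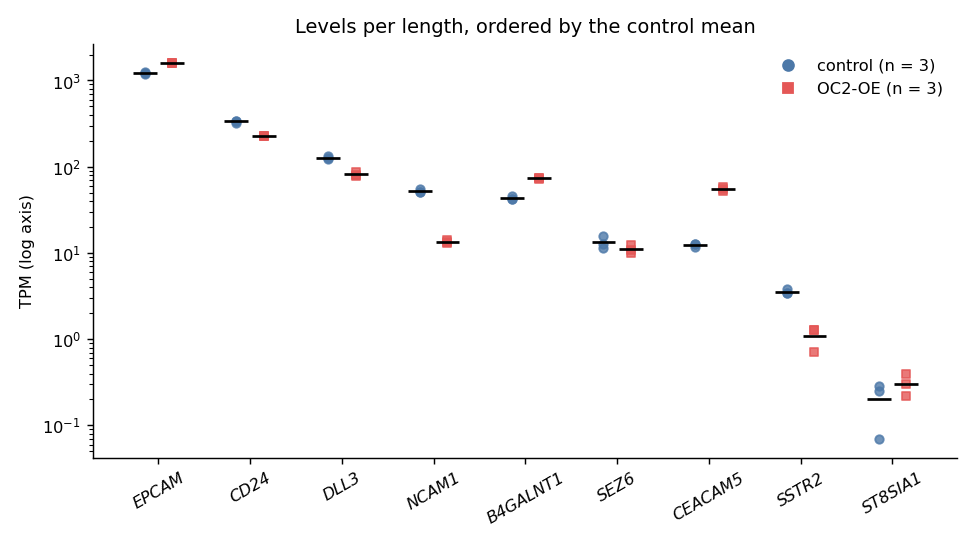
TPM on a log axis for the 9 genes, ordered by their mean in control, with the 3 control libraries as blue circles, the 3 OC2-OE libraries as red squares and the group means as black lines. EPCAM leads in both groups, and NCAM1 and CEACAM5 change places, from 52.6 and 12.4 TPM in control to 13.6 and 55.2 TPM in OC2-OE.

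EPCAM made up most of the transcripts of the 7 antigens in every library. Their summed level was 1786, 1767 and 1758 TPM in control and 1981, 1993 and 1981 TPM in OC2-OE. EPCAM held 69.4, 69.8 and 68.5% of it in control and 80.6, 80.5 and 80.2% in OC2-OE. Without EPCAM the sum of the other 6 was 547, 534 and 554 TPM in control and 384, 388 and 392 TPM in OC2-OE, so the sum with EPCAM was higher in OC2-OE and the sum without it lower. CD24 went from between 18.4 and 19.5% of the 7-antigen sum to between 11.3 and 11.5%, and DLL3 from between 6.95 and 7.57% to between 3.89 and 4.35%. NCAM1 went from between 2.89 and 3.10% to between 0.661 and 0.719%, and CEACAM5 from between 0.658 and 0.720% to between 2.60 and 2.94%. None of these shares overlapped between the groups.

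Ratios of genes within a library do not depend on how the libraries are scaled, and 3 were compared with an exact two-sided permutation test, whose smallest p for 3 against 3 libraries is 0.1. The EPCAM to NCAM1 ratio was 22.4, 24.1 and 23.5 in control and 121, 122 and 112 in OC2-OE, a 5.05-fold difference with no overlap (p = 0.1, exact). Every OC2-OE library lay above every control library in EPCAM and below every one in NCAM1, so this p was fixed in advance. It adds nothing to the calls of these genes. The SEZ6 to DLL3 ratio was 0.0924, 0.126 and 0.0950 in control and 0.123, 0.162 and 0.125 in OC2-OE, which overlapped (log2 difference 0.39; p = 0.3, exact). For B4GALNT1 to ST8SIA1 the ratio was 148, 180 and 606 in control and 188, 330 and 246 in OC2-OE. Those groups overlapped (log2 difference -0.03; p = 1, exact), and the value of 606 in control replicate 3 rests on 4 counts of ST8SIA1. Without that library the log2 difference was 0.60, and without OC2-OE replicate 1 it was 0.17.

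Relatives of the 9 genes did not all move as the gene they resemble. Of 33 listed family relatives 17 were tested, of which 7 were higher, 9 lower and 1 not called, so 94.1% were called where 56.5% of all tested genes were, and 8 had no count in any library. Their median log2 fold change was -0.23. Among the other ligands of Notch, DLL1 fell from 58.2 to 37.0 CPM (log2 fold change -0.65, standard error 0.050), DLL4 had a log2 fold change of -1.55, and JAG1 and JAG2 of -0.27 and -0.26. DLK2, a delta-like protein without the domain that binds Notch, rose from 22 to 178 summed counts (2.91, standard error 0.29). DLL1, DLL4, JAG1 and JAG2 were thus called lower, as 28.7% of all tested genes were, and DLK2 higher.

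SEZ6L2, the family member of SEZ6 with the higher level, rose where SEZ6 was not called. It had 90.4, 93.1 and 94.3 CPM in control and 198, 195 and 192 CPM in OC2-OE (log2 fold change 1.08, standard error 0.032; adjusted p = 7.2e-60, edgeR). Per length it was at 91.8 TPM in control and 199 TPM in OC2-OE, above SEZ6 in both groups, and SEZ6L had 0 counts. Of the other somatostatin receptors, SSTR1 fell from 17.98 ± 0.792 to 11.3 ± 0.539 CPM (log2 fold change -0.67, standard error 0.086), SSTR3 and SSTR4 had 0 counts, and SSTR5 had 1 count in each group. Per length SSTR1 lay above SSTR2 in both groups, at 16.7 and 10.8 TPM against 3.56 and 1.08 TPM. NCAM2, the sole relative listed for NCAM1, had 42 and 26 summed counts and was not tested.

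Within the CEACAM family, CEACAM6 rose with CEACAM5 and CEACAM1 fell. CEACAM6, a GPI-anchored antigen that lies next to CEACAM5, had 82.1, 77.8 and 76.6 CPM in control and 576, 568 and 586 CPM in OC2-OE. No library of a group came near the other group, and the log2 fold change was 2.87 (standard error 0.028; adjusted p = 2.89e-112, edgeR). Per length it went from 109 to 818 TPM, so that in OC2-OE it lay below EPCAM and above CD24. CEACAM1, a transmembrane adhesion receptor, went the other way, from 20.4, 19.4 and 20.7 CPM to 5.38, 4.50 and 5.93 CPM (log2 fold change -1.93, standard error 0.10; adjusted p = 4.59e-37, edgeR). CEACAM19 had a log2 fold change of 0.79 and CEACAM16 was not called.

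Relatives of the GD2 enzymes moved in both directions. The sialyltransferases ST8SIA4 and ST8SIA5 had log2 fold changes of -1.05 and -0.21, and ST8SIA3 of 1.15. B4GALNT3, which adds N-acetylgalactosamine to N-acetylglucosamine on glycoproteins, fell from 232 ± 4.12 to 95.2 ± 1.58 CPM (log2 fold change -1.29, standard error 0.031), while B4GALNT4, an enzyme of the same activity, was at 0.42.

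**Figure D5:**
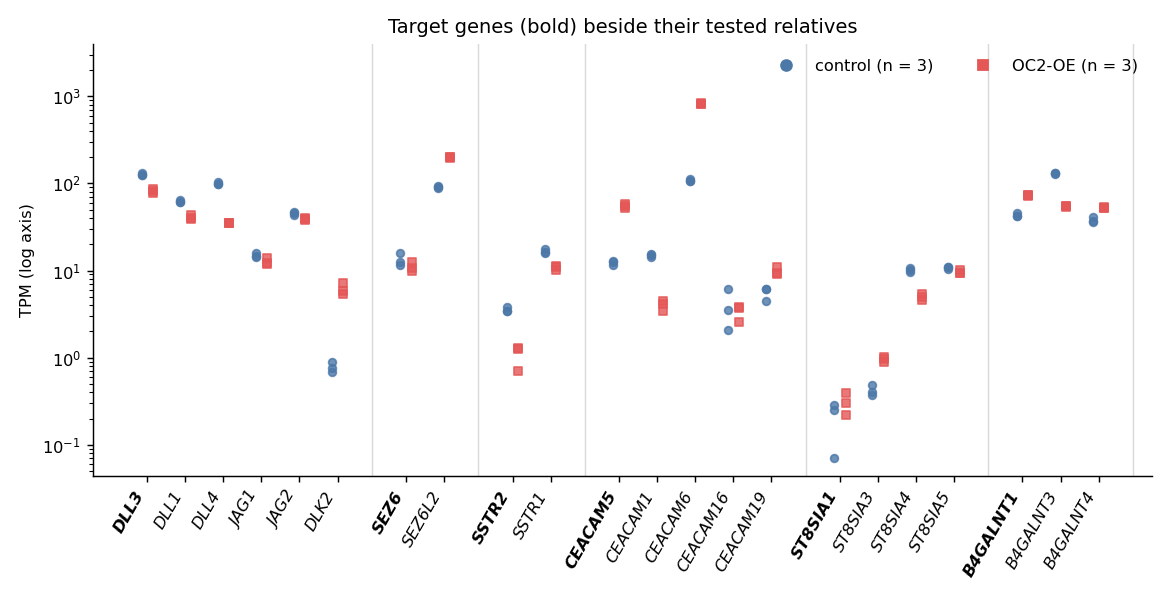
TPM on a log axis for 6 of the target genes (bold) and relatives of theirs that were tested, with vertical lines between families, control libraries as blue circles and OC2-OE libraries as red squares (n = 3 each). CEACAM6 rises from 109 to 818 TPM beside CEACAM5, CEACAM1 falls, and SEZ6L2 rises from 91.8 to 199 TPM beside an overlapping SEZ6.

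Of 38 other surface antigens at which cancer therapies have been aimed, 30 were tested, with 9 higher, 16 lower and 5 not called (83.3% called, beside 56.5% of all tested genes, with 27.8% higher and 28.7% lower) and a median log2 fold change of -0.23. CA9, a carbonic anhydrase of hypoxic cells, fell from 9.86 ± 0.569 to 0.806 ± 0.135 CPM (log2 fold change -3.60, standard error 0.18). ITGB6, the beta subunit of an integrin that activates TGF-beta, had 35.2, 33.9 and 31.1 CPM in control and 353, 357 and 356 CPM in OC2-OE. Its log2 fold change was 3.40 (standard error 0.035; adjusted p = 1.18e-109, edgeR), which is more than that of any of the 9 genes. GRPR, the receptor of gastrin-releasing peptide, rose from 16 to 109 summed counts (2.66, standard error 0.36), a change that rests on few control counts. These 3 had the largest absolute log2 fold changes of the called genes on that list. The place of GRPR among them is uncertain, since its 95% interval (1.95 to 3.36) includes the size of the change of GPC3 (-2.57).

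Partners and processing enzymes of the antigens were listed too. Of 21 such genes 19 were tested, with 7 higher, 7 lower and 5 not called (73.7% called, beside 56.5% of all tested genes, with 27.8% higher and 28.7% lower) and a median log2 fold change of 0.11. SST, the ligand of SSTR2, fell from 112 ± 5.41 to 56.3 ± 1.85 CPM (log2 fold change -0.99, standard error 0.040), and ARRB1, an arrestin that binds activated receptors, from 325 ± 16.2 to 163 ± 6.01 CPM (-0.99, standard error 0.029). For the NCAM1 partner ST8SIA4, which builds polysialic acid on NCAM1, the level fell from 19.4 ± 1.24 to 9.33 ± 0.701 CPM, while ST8SIA2, the other enzyme of that step, had 0 counts. BACE1, a protease that cleaves SEZ6, fell from 162 ± 0.621 to 95.9 ± 2.55 CPM (-0.76, standard error 0.033). All 4 of these genes were called lower, but they were picked from a list with 7 higher and 7 lower. Their shared direction therefore says nothing about the list. GNAI2, a G protein subunit gene on the same list, was called higher (0.27).

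Around EPCAM, the proteases that cleave it and the proteins it associates with differed in direction. ADAM17 and ADAM10, which release its extracellular part, had log2 fold changes of 0.69 and 0.23, both called higher. The listed subunits of gamma-secretase did not all pass the test: NCSTN (0.59) and APH1A (0.19) were among those called higher and PSENEN (-0.03) among those not called. CLDN7, a claudin bound by EPCAM, was not called (-0.03; 326 and 319 CPM), and TSPAN8 was called lower (-0.34). CD44 moved farthest on this list, from 7 to 120 summed counts (3.94, standard error 0.42), a change that rests on few control counts.

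CEACAM5 and CD24 are attached to the membrane by a GPI anchor. Of 26 genes of GPI anchor synthesis, attachment and remodelling 25 were tested, with 15 higher, 4 lower and 6 not called (76% called, where 56.5% of all tested genes were called and 27.8% were higher) and a median log2 fold change of 0.34. These changes were small, between -0.42 and 0.89, and no gene of the list reached an absolute log2 fold change of 1, where 17.3% of all tested genes were called at that size. The first 3 by absolute log2 fold change were PIGV (0.89), PGAP3 (0.79) and GPAA1 (0.63), a mannosyltransferase, a remodelling enzyme and a subunit of the transamidase that attaches the anchor. GPAA1 went from 108 ± 0.411 to 167 ± 4.81 CPM (standard error of the log2 fold change 0.032). Without OC2-OE replicate 1, and with scaling by library size alone, 2 genes were lower in place of 4.

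The genes on either side of the 9 genes were read as a description chosen after the data were seen. Of 35 tested neighbours 11 were higher and 11 lower, shares near the 27.8% and 28.7% of all tested genes, so the counts show nothing particular to these places. The pair of neighbours CEACAM5 and CEACAM6 rose (2.11 and 2.87), whereas RPS19, the next tested gene beyond CEACAM6, had a log2 fold change of -0.49 and DMAC2, on the other side of CEACAM5, of -0.36. EPCAM-DT, a divergent transcript that starts next to EPCAM, had a log2 fold change of 1.26, and NCAM1-AS1, antisense to NCAM1, of -1.68. Beside B4GALNT1, DTX3 and ARHGEF25 had log2 fold changes of 1.00 and 1.15. For DLL3, which fell, TIMM50 had a log2 fold change of -0.27 and the 3 other tested neighbours were not called.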

How the data were processed

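RNA was measured by stranded poly(A) RNA-Seq in 6 libraries of DMS53 cells, 3 per group, grouped by the genotype in the labels. The authors aligned reads with STAR 2.7.9a to GRCh38 and counted read pairs per gene with featureCounts 1.6.0 on GENCODE 42. The deposited values are raw counts per gene, and the deposited gene length in bases is the sum of the merged exons. Per the file headers, counting used the strand and left out reads that map to several places, which lowers genes with near-identical copies.

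Symbols were matched by identifier for 62672 of 62696 genes. Counts were fitted in R 4.3.3 with edgeR 4.0.16 (TMM, filterByExpr, robust quasi-likelihood test, two-sided, no term for the replicate number) over all 6 libraries, and p-values were adjusted by Benjamini-Hochberg over 17307 genes. A call needs an adjusted p under 0.001, the threshold of the study. Standard errors are the absolute log2 fold change over the root of F. TPM was computed from the counts and lengths. The labels number the replicates 1 to 3 in each group. The study describes its RNA-Seq experiments as independent without saying what was repeated, and p-values measure the spread between these libraries. Libraries of a group differed by 1.32 to 2.06 in chi-square per degree of freedom against read sampling, and libraries of different groups by 92.7 to 104. The p-values cannot be read as covering the spread between separate transductions. Alternatives used DESeq2 1.42.0, limma 3.58.1, other scalings, filters and thresholds, a replicate block and each library left out.

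Libraries held 16533284 to 19099337 counts, which limits low genes. The 9 genes and the lists were chosen with earlier results of these data known. Named genes were all 9, their called relatives, and on each list up to 3 called genes with the largest absolute log2 fold change. A few further genes of the lists are named for their role or the size of their change and were chosen after their values were seen. Promoter sequences are from RefSeq (GRCh38.p14), where 4 of the 9 genes had an entry. A few genes of the lists enter the counts and are not reported here by name.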

Additional observations from a re-analysis of the deposited data

How the results depend on the processing

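Over 16 alternatives of scaling, test, filter, threshold and libraries, NCAM1, SSTR2 and CEACAM5 kept their direction and their call. DLL3 (-0.69), EPCAM (0.34), CD24 (-0.61) and B4GALNT1 (0.72) kept theirs except where a change of at least 1 on the log2 scale was also required, which left 1 gene higher, 2 lower and 2999 calls over all genes (17.3%) in place of 9776. SEZ6 became a call at an adjusted p under 0.05 (-0.31; then 5 genes lower and 12354 calls), without control replicate 1 and without OC2-OE replicate 2. When libraries were left out singly, SEZ6 ranged from -0.41 to -0.16 (log2 fold change) and ST8SIA1, never called, from 0.14 to 0.87. The log2 difference of the B4GALNT1 to ST8SIA1 ratio ranged from -0.41 to 0.60, the EPCAM to NCAM1 ratio from 2.31 to 2.38, and calls over all genes from 8944 to 9340. ST8SIA1 has no value with at least 10 counts in every library.

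A fit with the replicate number as a block gave 9642 calls, 3 of the 9 genes higher and 4 lower, and changed no call of theirs. Deviations of libraries with the same number correlated at -0.003 to 0.020, and the labels do not tie the numbers to a shared batch. Scaling by library size alone moved the median of all genes by 0.05. Low counts limit SSTR2 and ST8SIA1.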
